A study of Mus musculus with 23 samples.

Results

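Colon of mice that had drunk dextran sodium sulphate (DSS) for 6 days was compared with colon of untreated mice across all genes measured, and both gains and losses are described. By their titles, 6 arrays held day 6 colon and 5 held day 0 colon, 11 of the 23 arrays in the series, and the arrays of days 2 and 4 (6 each) were used only to estimate the spread and to set some levels beside those of day 6. Day 0 animals were C57BL/6J mice without DSS, and day 6 animals were C57BL/6J mice given 3% DSS in their drinking water. All were 12 to 14 weeks old, their sex was not stated, and no genotype or treatment other than the DSS separated the groups. Each array held total RNA of colon tissue from 1 numbered animal, hybridized to the Affymetrix Mouse Genome 430 2.0 array, and each day was a separate cohort. Neither the segment of colon nor the layers of its wall that were taken were stated, and no source said whether animals shared a cage, so the p-values measure the spread between these animals.

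DSS is a sulphated polysaccharide that, given in water, damages the lining of the colon and lets bacteria reach the tissue below. Resident macrophages and stromal cells then make cytokines and chemokines, neutrophils and monocytes enter from the blood, and proteases open up the matrix. The colonic lining itself consists of absorptive cells that take up salt, water and butyrate, goblet cells that make mucus, rarer hormone and chemosensory cells, and the crypt stem cells that renew them all.

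Of 12464 genes tested with limma, 2261 were higher at day 6 (18.1% of genes tested) and 1783 were lower (14.3%), at a Benjamini-Hochberg adjusted p of 0.05 or less. Gains were larger than losses: 509 genes (4.08%) rose at least 2-fold and 143 (1.15%) fell at least 2-fold, 99 rose and 17 fell at least 4-fold, and 33 rose and 1 fell at least 8-fold. All 6 day 6 arrays lay above all 5 day 0 arrays for 1239 genes (9.94%) and below them for 827 (6.64%). The median change of all genes was 0.02 on the log2 scale. Of the genes called, 55.9% were higher, and with each array centred on its median 39.5% were (1556 higher and 2380 lower, median change -0.06), so the balance of gains and losses depends on the scaling. Levels are MAS5 signals, a brightness scaled to the same trimmed mean on every array, and folds are differences of means of log2(signal + 16), which understate the change of dim genes. At the bright end, the 100 genes with the highest signals (15641 to 31094 on average) changed by at most 0.25 upward, and 4 of them rose while 27 fell. Values are those of the brightest probe set of a gene; among the genes named as changed, another probe set, often a dim one, had the opposite sign for Cfp (-0.12), Ptprc (-0.27), Slc2a3 (-0.28 and -0.15), Tap1 (-0.08), Il6st (-0.02), Tnfaip2 (-0.00247), Upk1b (-0.20), Cx3cl1 (0.27), Socs2 (0.09 to 0.48) and AI854703 (0.06), and is given beside the result for Lgr5, Smoc2, Cemip, Cldn1, Dclk1 and Malat1. In tissue RNA, more cells of a type and more RNA per cell cannot be told apart.

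Array quality moved with the day. For beta-actin, the log2 ratio of the 3' to the 5' control probe set averaged 0.43 ± 0.02 (SD) over the 5 untreated and 0.51 ± 0.04 over the 6 treated animals, and for Gapdh -0.39 ± 0.06 and -0.24 ± 0.04. The mean log2 hybridization control was 11.42 ± 0.06 at day 0 and 10.9 ± 0.19 at day 6. For each measure the groups did not overlap, and the exact 2-sided permutation test gave p = 0.00433, the smallest that 5 against 6 arrays allow. With the hybridization control as a covariate, 568 genes were higher and 497 lower; since it did not overlap between the groups, it and the day cannot be told apart.

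The tissue carried the defining markers of colon at both times. Epcam, an adhesion protein of epithelial cells, read 19404, 19313, 21413, 19993 and 19641 at day 0 and 17502, 19143 and 21240.2 (lowest, median and highest) at day 6. Cdx2, the transcription factor that specifies intestinal epithelium, read 2349, 2565, 3127, 2331 and 3389 against 2313, 2379 and 3406. Both genes overlapped between the groups, and neither passed the test, with 95% intervals of the log2 change from -0.16 to 0.04 for Epcam and from -0.42 to 0.25 for Cdx2; their other probe sets gave 0.37 and -0.46.

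S100a9, the gene with the largest gain, and S100a8 encode the subunits of calprotectin, the metal-binding protein that fills the cytoplasm of neutrophils. S100a9 read 36, 139, 27.4, 41.5 and 44.6 at day 0 and 729, 3455 and 4996 at day 6. The groups did not overlap, and mouse 3 was lowest while the other 5 day 6 animals read 2811 to 4996. S100a9 rose 44.1-fold (log2 change 5.46 ± 0.56 SE, adjusted p = 1.6e-07). S100a8 read 94.3, 193, 82.4, 73.7 and 102 at day 0 against 988, 4736 and 6459.6 at day 6, again with mouse 3 lowest, and rose 31.7-fold (4.99 ± 0.50, adjusted p = 1.37e-07). Of 24 neutrophil genes on the array 16 were measured above the low-signal filter, and of these 14 rose and 1 fell (median log2 change 2.51). Those that rose include the receptor of granulocyte colony-stimulating factor Csf3r (2.34 ± 0.34), the decoy receptor of interleukin-1 Il1r2 (2.21), the activating receptor Trem1 (2.07), the C-type lectin Clec4e that senses dead cells and mycobacteria (3.59 ± 0.41), and the histamine-making enzyme Hdc (2.74 ± 0.34). The member that fell was Cd177, a surface protein of neutrophils that read 3128 to 3827 in untreated colon and 1479 to 1973 at day 6 (-0.93 ± 0.12). Ltf, the granule protein lactoferrin, did not pass (0.22), and the collagenase Mmp8 was below the low-signal filter, at 44.4 to 72.9 at day 0 and 64 to 192 at day 6. That filter asks for 5 of the 23 arrays, so the 6 day 6 arrays alone can admit a gene. In any list this can raise the share of risers among the genes measured.

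**Figure D1:**
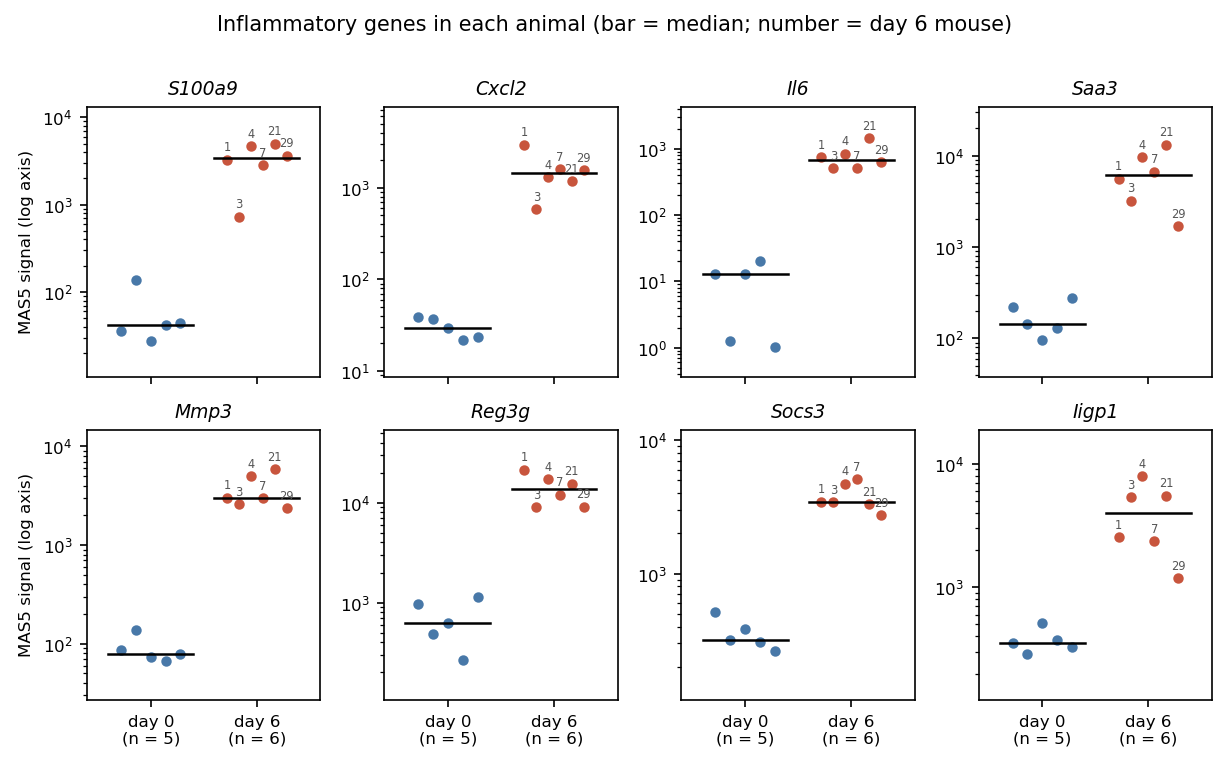
MAS5 signal (log axis) of 8 genes in each of the 5 untreated and 6 day 6 animals; each point is an animal, the number above a point names the day 6 mouse, and the bar is the group median. In every panel the groups are separate: the lowest S100a9 signal at day 6 is 729 (mouse 3) and the highest at day 0 is 139.

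Chemokines that draw neutrophils were among the steepest gains. Cxcl2 read 38.4, 37.4, 29.6, 21.8 and 23.3 at day 0 and 585, 1432 and 2942 at day 6, a 30.4-fold rise with no overlap (4.93 ± 0.33, adjusted p = 4.91e-10). Its median was 21.5 at day 2 and 76.0 at day 4, so most of the difference lay between days 4 and 6. Cxcl1, which acts on the same receptor, was brighter to begin with, at 223, 153, 123, 175 and 212, and reached 908, 1284 and 2694 (2.90 ± 0.28). Cxcl5, a related chemokine of epithelial cells, read 79.2, 58.8, 41.5, 31.3 and 42.7 against 484, 879 and 2857 (3.91 ± 0.39), with mouse 4 highest. Cxcl3 rose by 3.41. The interferon-inducible chemokines of T cells rose too: Cxcl9 read 47.8, 16.8, 46.5, 52.3 and 61.0 against 365, 1084 and 3401 (4.34 ± 0.44), and Cxcl10 read 224, 168, 131, 113 and 106 against 355, 1055 and 2961 (2.75 ± 0.38). Both were highest in mouse 4 and lowest in mouse 29. In all, 11 of 14 CXC chemokines rose and none fell. Cxcl17, a chemokine of epithelial surfaces, was not among them (0.51).

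The start regions of the chemokine genes are shown because members of the family that rose together carry the same letters. Sequences are from RefSeq's GRCm38.p6 table, 250 bases before to 50 after the start, and capitals mark matches to an NF-kappaB motif (GGGA and TTCC with any 2 bases between, either strand) and, in Cxcl10, also to an interferon response element (GAAA 2 times with any 2 bases between, either strand). Cxcl1 and Cxcl2 share an 11-base run that matches the NF-kappaB motif on both strands.
Cxcl1 (chr5:90890995-90891294, plus strand): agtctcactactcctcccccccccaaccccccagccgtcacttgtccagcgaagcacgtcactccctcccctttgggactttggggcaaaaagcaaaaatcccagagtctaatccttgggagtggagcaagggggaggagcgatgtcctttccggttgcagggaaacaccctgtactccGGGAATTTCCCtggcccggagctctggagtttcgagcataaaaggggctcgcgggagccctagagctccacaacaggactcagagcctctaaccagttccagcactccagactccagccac
Cxcl2 (chr5:90903649-90903948, plus strand): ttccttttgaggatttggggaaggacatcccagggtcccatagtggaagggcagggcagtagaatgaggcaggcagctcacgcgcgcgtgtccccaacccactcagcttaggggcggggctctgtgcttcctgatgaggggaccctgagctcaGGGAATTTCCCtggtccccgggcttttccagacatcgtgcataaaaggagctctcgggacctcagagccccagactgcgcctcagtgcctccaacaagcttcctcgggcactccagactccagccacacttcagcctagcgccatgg
Cxcl10 (chr5:92348840-92349139, minus strand): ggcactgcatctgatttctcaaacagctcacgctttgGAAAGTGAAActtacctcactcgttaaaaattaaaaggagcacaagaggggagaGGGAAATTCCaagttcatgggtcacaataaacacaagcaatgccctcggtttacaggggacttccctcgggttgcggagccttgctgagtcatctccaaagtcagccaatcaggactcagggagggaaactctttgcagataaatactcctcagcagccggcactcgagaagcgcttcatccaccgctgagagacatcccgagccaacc
The NF-kappaB motif lay in 4 of 10 CXC chemokine promoters in the table, against 1.63% of the 27025 promoters in it and 1.81% of those of genes tested. A match of letters is a description and says nothing of binding.

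Of 15 genes of the CC chemokine list, which holds Cx3cl1 too, 9 rose and 2 fell. The monocyte chemokine Ccl2 read 135, 169.7, 84.0, 88.9 and 122 at day 0 and 484, 799 and 1799 at day 6 (2.78 ± 0.30, adjusted p = 3.26e-07). Ccl8, another chemokine of monocytes, was already well above dim genes at 545, 535, 451, 362 and 424 and reached 2485, 4171 and 7584 (3.12 ± 0.22). Ccl7 (2.73), Ccl12 (2.01), the eosinophil chemokine Ccl11 (1.53) and Ccl5 (0.94) rose as well. The 2 that fell are made by epithelium or vessels: Ccl28, which draws IgA-making cells to the colon, read 3245, 3432, 3397, 2695 and 3749 at day 0 and 863, 1478 and 2761 at day 6, overlapping in mouse 3 (-1.08 ± 0.19, adjusted p = 0.000144), and Cx3cl1 fell by 0.44. Ccl20, an epithelial chemokine of dendritic cells, was at -0.53 (adjusted p = 0.0777).

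Cytokines of the interleukin-6 and interleukin-1 families rose together. Il6, which drives the acute phase response, read 12.9, 1.24, 13.1, 20.1 and 1.03 at day 0, at the dim end of the array, and 507, 683 and 1454 at day 6 (4.92 ± 0.32, adjusted p = 3.66e-10). Il11, a stromal relative of Il6, read 8.56, 11.4, 45.1, 9.36 and 57.7 against 204, 548 and 1221 (3.78 ± 0.42). Il1b read 199, 140.1, 131, 133 and 125 against 831, 2280.2 and 3529 (3.67 ± 0.33), highest in mouse 1 and lowest in mouse 3. Il33, an alarm signal released by damaged barrier and stromal cells, read 203, 256, 221, 263 and 279 against 1203, 1753 and 2664 (2.79 ± 0.20), with a narrow spread between animals. None of these 4 genes overlapped between groups. Osm (1.22 ± 0.28), Csf3 (2.12 ± 0.40) and Tnf (1.47 ± 0.43, adjusted p = 0.011) rose less, and Tnf read only 90.5 to 363 at day 6. Of 26 cytokine genes on the array 13 were above the low-signal filter, and 11 of these rose. Il18, which epithelium makes at all times, stayed without a call (-0.16, interval -0.56 to 0.24).

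Cytokines of lymphocytes and macrophages that were below the low-signal filter deserve their raw levels. Ifng read 1.18 to 27.2 at day 0 and 26.9 to 179 at day 6, and Il17a read 7.95 to 73.1 and 28.2 to 95.3. Il10 read 8.46 to 30.1 and 10.5 to 60.4, and Nos2, the inducible nitric oxide synthase, read 2.94 to 6.96 and 4.19 to 81.1. Without the filter, Ifng (1.98, adjusted p = 0.000471) and Nos2 (0.94, adjusted p = 0.0391) passed as higher, whereas Il17a (adjusted p = 0.0866) and Il10 (adjusted p = 0.165) did not.

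Receptors and intracellular brakes of these signals rose with them. Osmr, the receptor subunit for oncostatin M, read 556, 445, 495, 575 and 524 at day 0 and 1754, 2419.8 and 3428 at day 6 (2.19 ± 0.15, adjusted p = 8.63e-10), and its partner Il6st, shared by the Il6 family, rose by 1.14 ± 0.12. Of 24 receptors and decoys 15 rose and 1 fell. The latter was Il22ra1, the epithelial subunit of the interleukin-22 receptor (-0.75 ± 0.22). Its median was 393 at day 0 and 226 at day 6, where the animals read 171 to 262. Socs3, the inhibitor that STAT3 induces against the Il6 receptor, read 511, 316, 384, 305 and 261 against 2739, 3451 and 5137, a 10.3-fold rise (3.37 ± 0.22, adjusted p = 4.91e-10). Of 21 genes induced by NF-kappaB or STAT signals 15 rose, among them Tnfaip2 (2.37), Icam1 (1.70), the transcription factor Cebpb (1.41 ± 0.18) and Stat3 itself (0.64). Tnfaip3, an NF-kappaB brake, did not pass (0.23), and Socs2 fell (-0.48 ± 0.09).

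RNA of acute phase proteins, which the liver secretes into plasma in systemic inflammation, rose in the colon tissue itself. Saa3, a serum amyloid A of tissues, read 222, 145, 96.1, 129 and 279 at day 0 and 1679, 6123 and 13125 at day 6, a 30.4-fold rise (4.92 ± 0.38, adjusted p = 3.19e-09). The animals were spread over nearly an order of magnitude, mouse 21 highest and mouse 29 lowest, but none met the day 0 range. Serpina3n, a serine protease inhibitor, read 128, 201, 222, 281 and 162 against 1449, 3665 and 6894 (3.97 ± 0.32). Hp, the haemoglobin-binding haptoglobin, read 66.3, 83.1, 73.1, 84.9 and 259 against 647, 1781 and 5082 (3.98 ± 0.64). Lcn2, which withholds iron from bacteria, read 44.2, 87.5, 81.5, 108 and 129 against 786, 1353 and 3276 (3.79 ± 0.36). Of 23 acute phase genes on the array 11 were above the low-signal filter, and 9 of these rose. The epithelial forms Saa1 (0.15) and Saa2 (0.39) did not pass. Hp and Lcn2 also stand in the neutrophil list. A C/EBP motif (TTNNGCAA, either strand) lay in 6 of the 8 acute phase promoters in the RefSeq table, against 12.2% of all promoters in it. Saa1 and Saa2, which did not pass, were among the 6, and the match is a description of letters only.

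Clca4b, a member of the calcium-activated chloride channel regulator family, read 242, 304, 75.6, 82.7 and 177 at day 0 and 1189, 5791 and 11353 at day 6, highest in mouse 4 and lowest in mouse 29 (4.72 ± 0.48, adjusted p = 1.62e-07).

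Antimicrobial proteins of the gut lining moved in both directions. Reg3g, a lectin that kills Gram-positive bacteria, read 965, 483, 619, 263 and 1149 at day 0 and 9083, 13809 and 21481 at day 6, 21.2-fold higher (4.41 ± 0.47, adjusted p = 3.31e-07). Its relative Reg3b read 5189, 2749, 1818, 785 and 6720.5 against 21625, 24634 and 27297 (3.19 ± 0.46), at the bright end of the array. The protease inhibitor Slpi (2.10 ± 0.40) and the defensin Defb1 (1.91 ± 0.50) rose as well. Among the 17 genes of this list 9 rose and 4 fell. Wfdc2, an epithelial whey acidic protein, read 6184, 8143, 6711, 6304 and 6033 against 732, 1656 and 4442 (-1.78 ± 0.28, adjusted p = 4.5e-05), with mice 3 and 29 keeping most. Reg4, a marker of deep crypt secretory cells in the colon, read 8098, 7445, 6477, 6558 and 9338 against 499, 1730.0 and 10502; mouse 7 alone lay above all day 0 animals while the other 5 lay below them (-2.14 ± 0.48). Ang4 was scattered in untreated colon (2343 to 13849.8) and read 975 to 2796 at day 6 (-1.82 ± 0.64, adjusted p = 0.0309), a call lost in 4 of the 11 fits that left out 1 array (adjusted p up to 0.0931). The fourth was Pigr, the carrier of IgA across epithelium (-0.29 ± 0.06). Retnlb, an antibacterial protein of goblet cells, read 2575 to 9499.5 at day 0 and 6934 to 12758 at day 6 and did not pass (1.14 ± 0.45, adjusted p = 0.0558, and 0.0257 to 0.0495 in the 3 fits without 1 array in which it passed).

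Enzymes that cut matrix gave 3 of the 20 largest increases. Mmp3, stromelysin 1 of fibroblasts, read 86.2, 138, 74.1, 67.1 and 78.6 at day 0 and 2350.2, 3008 and 5852 at day 6, a 33.6-fold rise with the lowest adjusted p among the genes named here (5.07 ± 0.27, adjusted p = 1.37e-11). Its median was 175 at day 2 and 589 at day 4. Mmp10, stromelysin 2, read 58.1, 40.3, 36.5, 56.8 and 79.8 against 1039, 2181 and 4337 (4.87 ± 0.35), and the collagenase Mmp13 read 174, 115, 100, 111 and 167 against 1423, 3087 and 5028 (4.26 ± 0.39). The tissue inhibitor Timp1 rose with them, from 239, 182, 125, 179.7 and 175 to 848, 1308 and 2538 (2.87 ± 0.21). Of 24 proteases and inhibitors 19 rose and 1 fell. Plaur, the urokinase receptor, rose by 0.96 ± 0.22. Ptx3, a pentraxin that stromal cells and phagocytes release, read 18.7, 49.9, 28, 19.1 and 49.2 against 249.7, 549.7 and 2015, highest in mouse 7 (3.77 ± 0.48), while its other probe set gave 0.39. Cemip, a hyaluronan-degrading protein, read 26.7, 37.2, 25.9, 14.9 and 13.6 against 304, 874 and 1344 (4.23 ± 0.35), and its other probe sets gave 1.82 and -0.46.

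Stroma and vessels showed smaller but widespread gains. Of 34 genes of fibroblasts and matrix 31 rose and none fell, with a median log2 change of 0.82. Podoplanin (Pdpn), a membrane protein of activated fibroblasts and lymph vessels, read 590.5, 726, 686, 669 and 592 against 1639, 2236 and 2869 (1.71 ± 0.14). The collagen cross-linking enzyme Lox (1.61 ± 0.25), basement membrane collagen Col18a1 (1.66 ± 0.18) and the BMP antagonist Grem1 (1.34 ± 0.19) rose, while the main collagen Col1a1 rose by 0.85 ± 0.21. Among 24 endothelial genes 16 rose; those that let leukocytes stick rose most, with P-selectin (Selp) at 64, 75.7, 113, 56.8 and 96.0 against 489.6, 704 and 1446 (3.03 ± 0.30) and Vcam1 at 222, 317, 337, 359 and 205 against 887, 1113 and 1954 (2.08 ± 0.20). General endothelial genes rose less, Pecam1 by 0.87 and Cdh5 by 0.70. Of 18 contractile genes of smooth muscle 1 rose and 1 fell, and the interval for Acta2 ran from -0.07 to 0.13. Averaged over these 18, the animals differed in direction, from -0.33 (mouse 1) to 0.41 (mouse 3) at day 6. The day 0 animals ran from -0.08 to 0.06. Of 17 genes of enteric neurons and glia 12 rose, led by the glial filament Gfap, from 155, 120.2, 103, 89.9 and 154 to 213, 304 and 445 (1.24 ± 0.17), and by the neuropeptides Cartpt (0.83) and Vip (0.78); S100b, another glial gene, did not pass (-0.02, interval -0.40 to 0.37).

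Genes of monocytes and macrophages rose almost throughout, 25 of 27 with none lower (median 1.39). Chil3, a chitinase-like protein of mouse macrophages and neutrophils, read 1.50, 2.20, 0.72, 22.8 and 23.9 at day 0 and 86.2, 643 and 1586 at day 6 (4.60 ± 0.51). Ccr2, the receptor for Ccl2 on inflammatory monocytes, read 77.3, 129.7, 57.7, 84.7 and 108 against 407, 539 and 994 (2.49 ± 0.25), whereas Cx3cr1, the fractalkine receptor of resident macrophages, did not pass (-0.62 ± 0.29, adjusted p = 0.111). Fcgr4 rose by 2.52, Cd68 by 1.82 and Adgre1, the F4/80 antigen, by 0.74. Ptprc, the CD45 antigen of all leukocytes, rose by 1.40 ± 0.20. Arg1, an enzyme of alternatively activated macrophages, did not pass (0.92 ± 0.52, adjusted p = 0.185). Of 16 complement genes 15 rose, including properdin (Cfp, 1.61) and the C5a receptor (C5ar1, 1.55). Among 19 sensors of microbes 10 rose, led by the beta-glucan receptor Clec7a (2.19 ± 0.21), Tlr13 (1.63) and Nlrp3 (1.59), with Tlr4 at 0.22 and Cd14 at 0.65 ± 0.08. Acod1, the itaconate-making enzyme of activated macrophages, read 2.55 to 9.36 against 97.9 to 620.0 (3.58 ± 0.36).

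Interferon-induced genes rose, led by the GTPases that attack intracellular microbes. Iigp1 read 356, 289, 517, 378 and 329 at day 0 and 1184, 3971 and 7923 at day 6 (3.18 ± 0.39, adjusted p = 2e-06). Gbp2, a guanylate-binding protein, read 643, 649, 1044, 843 and 717 against 2088, 4536 and 10979 (2.59 ± 0.29). Igtp read 422, 595, 953, 805 and 557 against 2049, 3235 and 5996 (2.33 ± 0.28), and its neighbour in the family Irgm2 read 304, 463, 502, 585 and 413 against 1025, 2046 and 3865 (2.12 ± 0.27). In each of these 4 genes mouse 4 was highest and mouse 29 lowest, and the groups did not overlap. Of 31 members 26 rose and none fell. Ifit1, which binds viral RNA, rose by 0.88 ± 0.30, a call lost in 7 of the 11 fits that left out 1 array (adjusted p up to 0.102), and Irf7, a regulator of interferon genes, did not pass (0.08, interval -0.35 to 0.50). Ido1, the interferon-induced enzyme that breaks down tryptophan, read 233, 149, 452, 185 and 223 against 649, 2574 and 3918 (3.08 ± 0.46).

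The start regions of 3 of these GTPase genes are shown because the interferon response element, set in capitals, recurs in them. In Gbp2 the capitals also mark an NF-kappaB match after the element, and in Irgm2 a STAT motif (TTCCNGGAA) before it.
Gbp2 (chr3:142620413-142620712, plus strand): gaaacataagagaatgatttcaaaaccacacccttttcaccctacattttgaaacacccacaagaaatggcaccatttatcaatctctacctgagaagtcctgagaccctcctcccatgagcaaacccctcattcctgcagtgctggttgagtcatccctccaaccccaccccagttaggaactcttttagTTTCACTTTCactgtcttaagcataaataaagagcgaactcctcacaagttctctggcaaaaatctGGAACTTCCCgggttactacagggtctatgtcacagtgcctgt
Igtp (chr11:58199306-58199605, plus strand): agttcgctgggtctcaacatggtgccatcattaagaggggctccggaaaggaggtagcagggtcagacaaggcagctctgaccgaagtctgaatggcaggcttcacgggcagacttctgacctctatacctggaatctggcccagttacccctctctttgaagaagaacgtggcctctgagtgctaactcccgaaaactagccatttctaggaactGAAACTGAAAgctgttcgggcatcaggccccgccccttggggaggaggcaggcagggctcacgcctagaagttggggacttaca
Irgm2 (chr11:58214727-58215026, plus strand): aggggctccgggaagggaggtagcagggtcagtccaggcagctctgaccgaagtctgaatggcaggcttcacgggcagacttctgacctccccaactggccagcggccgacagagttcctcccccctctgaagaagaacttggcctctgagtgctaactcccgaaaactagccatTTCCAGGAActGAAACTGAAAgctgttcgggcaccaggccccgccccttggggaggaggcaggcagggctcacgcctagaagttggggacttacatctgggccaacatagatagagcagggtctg
The element lay in 13 of 23 interferon-stimulated promoters in the table (56.5%), in 39 of 368 promoters of genes that rose at least 2-fold (10.6%), and in 3.99% of all promoters in it. Igtp and Irgm2 carry the same matched letters. As for the chemokines, the match is a description of letters only.

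Genes of antigen presentation rose too. Of 13 class I genes 10 rose, led by the transactivator Nlrc5 (87.4, 72.5, 166, 102 and 102 against 434, 463 and 792; 2.22 ± 0.22), the peptide transporter Tap1 (1.99 ± 0.22) and the immunoproteasome subunits Psmb9 (1.40) and Psmb8 (1.37). The class I heavy chain H2-K1 did not pass (0.04), and B2m, the light chain, rose by 0.32 ± 0.07, from 12033 to 15522 at day 0 to 15438 to 18936 at day 6. Of 10 class II genes 6 rose by 0.56 to 0.83, H2-Ab1 most. Few markers of lymphocytes passed. In the plasma and B cell list 2 of 17 rose and 2 fell, against 18.1% higher and 14.3% lower over all genes tested. The risers were Cd22 (0.94) and Prdm1 (0.95). Jchain, the joining chain of secreted antibody, read 7738, 7912, 9202, 10659 and 7291 against 4175, 6029 and 6865 (-0.55 ± 0.16). Averaged over these 17, the day 6 animals ran from -0.42 to 0.86 and the day 0 animals from -0.54 to 0.25. Of 6 T and NK cell genes above the filter, out of 25 on the array, 1 rose (Klrd1, 0.78). Mast cells and eosinophils had 4 genes above the filter, of which Hdc rose and Kit, a receptor of mast cells and of the pacemaker cells of the gut wall, fell (-0.59 ± 0.12).

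**Figure D2:**
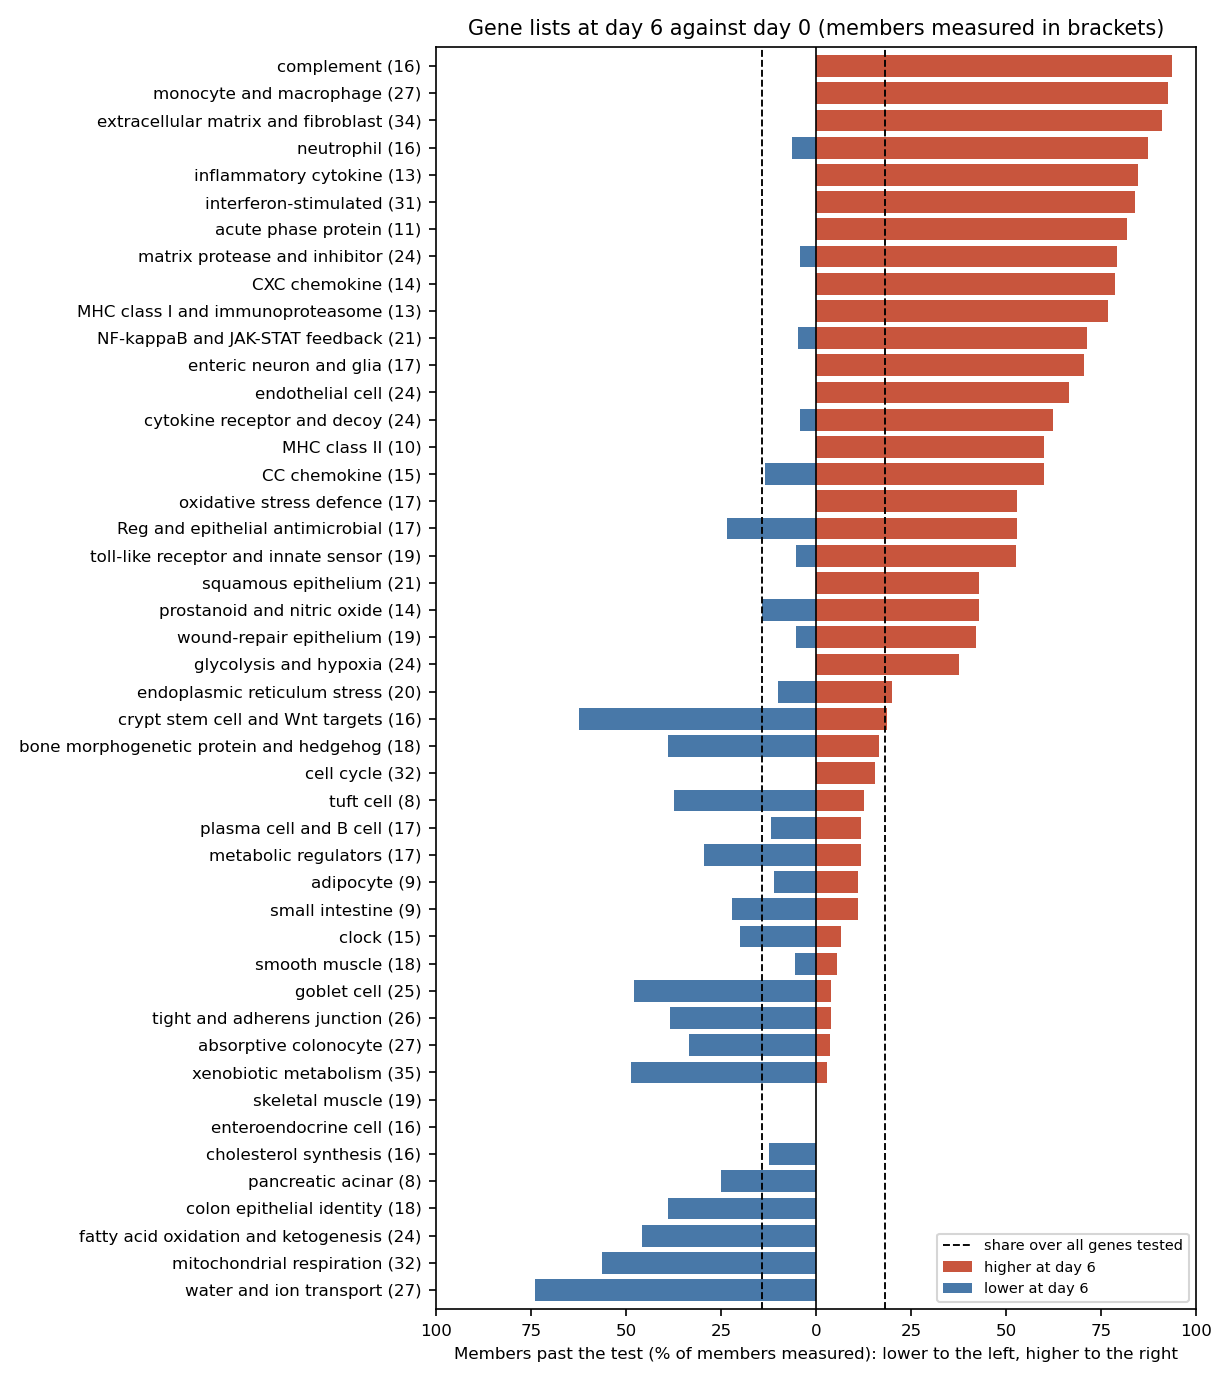
Share of the measured members of each gene list with 8 or more members that passed as higher (right, red) or lower (left, blue) at day 6 against day 0; dashed lines mark the shares over all 12464 genes tested (18.1% and 14.3%). Most immune lists and the matrix and complement lists lie far to the right, but not plasma cell and B cell. Among those to the left are water and ion transport, crypt stem cell and Wnt targets, mitochondrial respiration and xenobiotic metabolism.

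Small-molecule mediators and stress genes followed. Ptgs2, the inducible cyclooxygenase, read 944, 221, 276, 406 and 479.9 at day 0 and 762, 1078 and 2357 at day 6, overlapping through the high day 0 mouse 1 (1.57 ± 0.33), while Hpgd, the enzyme that inactivates prostaglandins, fell from 7093, 7557, 8007, 7902 and 8959 to 3498, 4422 and 5277 (-0.84 ± 0.10, adjusted p = 2.02e-06). The prostaglandin receptor Ptger4 fell as well (-0.61 ± 0.11). Another such receptor, Ptger2, moved the other way, from a median of 218 at day 0 to 458 at day 6 (log2 change 0.91). Hmox1, haem oxygenase 1, read 156, 132, 149, 141 and 158 against 214, 577 and 987 (1.72 ± 0.26), and the metallothionein Mt2 rose by 1.18. Of 24 glycolysis and hypoxia genes 9 rose, led by the glycolytic regulator Pfkfb3 (109, 194, 133, 109.7 and 178 against 392, 608 and 911; 1.99 ± 0.21) and including the glucose carrier Slc2a3 (0.88), Hif1a (0.58 ± 0.12) and Hk2 (0.58), whereas Ldha (0.12) and Vegfa (-0.06) did not pass. Endoplasmic reticulum stress genes stayed near the background, 4 of 20 higher and 2 lower. Among 15 clock genes 3 fell, against 14.3% lower over all genes tested, and the only riser was Nfil3, which is also induced by cytokines. Nfil3 read 138, 134, 201, 72.8 and 222 against 340.5, 888 and 1659 (2.46 ± 0.37).

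The largest loss was that of Mptx1. Mptx1, a mucosal pentraxin of the colon, read 21996, 12657, 16004, 14534 and 20407 at day 0 and 198, 863 and 10860.2 at day 6, and was the only gene to fall at least 8-fold (12.4-fold, -3.63 ± 0.60, adjusted p = 6.1e-05). Mice 3 (10860.2) and 29 (4937) kept far more of it than the other 4, which read 198 to 908. Fut9, a fucosyltransferase that makes the Lewis x sugar, read 400.2, 574, 510.0, 409 and 380.2 against 14.8, 35.6 and 122 (-2.92 ± 0.31), and Ttr, the carrier of thyroid hormone and retinol, read 2822, 4423, 4226, 4299 and 3113 against 242, 504 and 1141 (-2.80 ± 0.29). The transcription factor Etv4 fell from 185, 248, 175, 195 and 192 to 10.2, 22.6 and 46.1 (-2.45 ± 0.39), and its other probe set gave -0.27. Also among the 20 largest decreases were Nxpe2 (-2.34) and Nxpe4 (-2.04), the cytochrome P450 Cyp2c68 (-2.23), the magnesium channel Trpm6 (-1.88), the chloride channel protein Clic6 (-1.93), the inter-alpha-trypsin inhibitor chain Itih2 (-2.06), Rasd2 (-2.12), Gprin3 (-1.91) and the transcripts of unstated function 2310079G19Rik, 5033404E19Rik and AI854703. The long nuclear RNA Malat1 read 7182, 4080.1, 3594, 5612 and 6019.5 against 647, 1182 and 1779 on the probe set used (-2.24 ± 0.42), but its probe sets disagreed: 3 of 7 fell by more than 2 on the log2 scale and the other 4 ranged from -0.32 to 0.49.

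**Figure D3:**
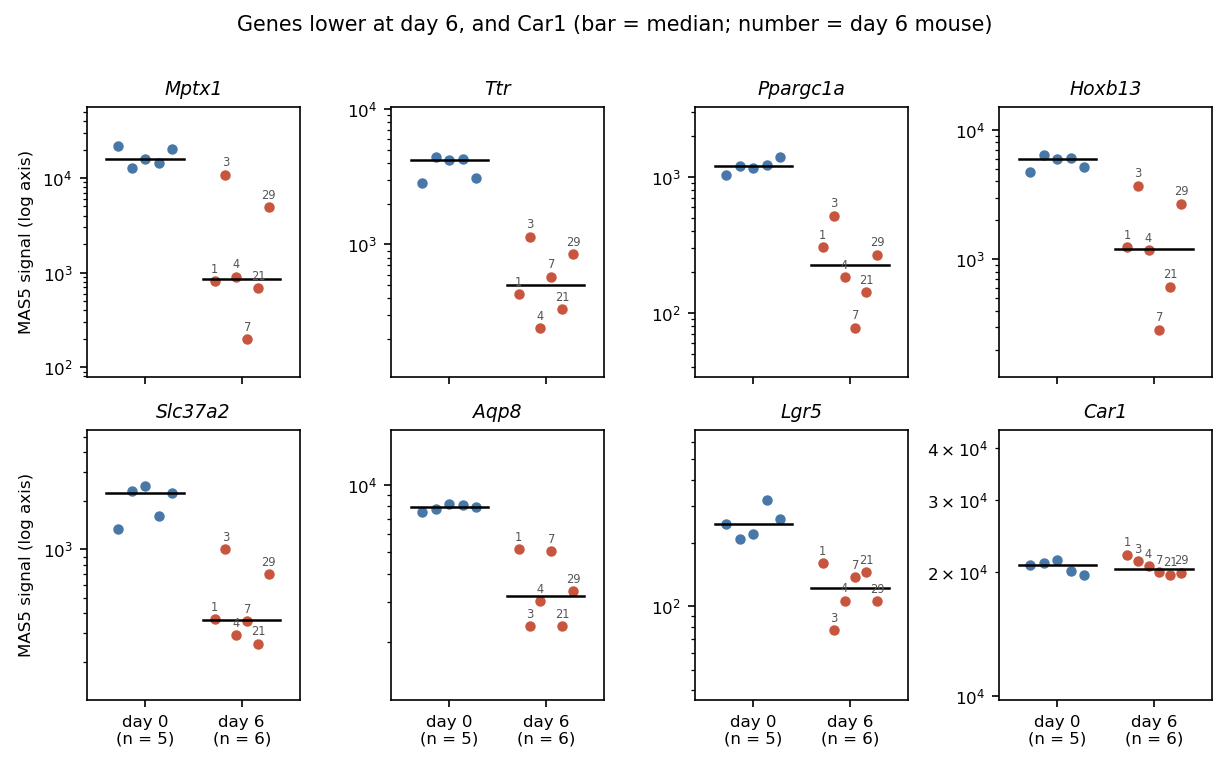
MAS5 signal (log axis) of 7 genes that fell and of Car1, which did not pass the test, in each untreated and day 6 animal; points, numbers and bars are as in the plot of inflammatory genes. Mice 3 and 29 keep the most Mptx1, Ttr, Hoxb13 and Slc37a2, but not the most Aqp8 or Lgr5.

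Of 18 identity genes 7 fell and none rose, with a median log2 change of -0.16 and a largest fall of 0.64 (Phgr1). Krt8, a keratin of simple epithelium, stayed within -0.15 to 0.07, and Krt20, a keratin of surface cells, within -0.33 to 0.41 (95% intervals of the log2 change). Hnf4a, a nuclear receptor that maintains intestinal epithelium, fell from 9218, 9080.2, 10086, 9940.5 and 8738 to 5739.9, 7698 and 8571 (-0.35 ± 0.09, adjusted p = 0.0035), and its other 3 probe sets gave -0.56, -0.83 and -1.04.

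Of 27 absorptive cell genes 9 fell and 1 rose. Car1, the carbonic anhydrase of colonic surface cells, read 20824, 21015, 21410.5, 20097 and 19623 at day 0 and 19690.4, 20328 and 22028 at day 6, with an interval from -0.11 to 0.11. Cyp2c55, a cytochrome P450 of the colon, also overlapped (-0.16 ± 0.08, adjusted p = 0.166, and 0.0463 without mouse 1 of day 6), and so did Car4 (-0.31 ± 0.27). At day 4, which enters the pooled spread, Car4 ran from 2861 to 15463. By contrast the water channel Aqp8 read 7548, 7752, 8215, 8079 and 7983 against 2337, 3188 and 5159.5 (-1.23 ± 0.28, adjusted p = 0.00153). The phosphate carrier Slc20a1 read 6687, 6830.0, 6245, 6717 and 5419 against 1451, 2072 and 3273 (-1.58 ± 0.21), and the sugar-phosphate carrier Slc37a2 read 1338, 2295, 2457, 1614 and 2244 against 258, 363 and 999 (-2.10 ± 0.32). The chloride and bicarbonate exchanger Slc26a3 fell less on the probe set used (-0.74 ± 0.18), and its other probe sets gave -0.96 to -1.46. The hormone Guca2a fell by 0.37 ± 0.07. Slc51b, a bile acid exporter subunit, was the one that rose (0.61 ± 0.20), a call lost in 4 of the 11 fits that left out 1 array (adjusted p up to 0.0784).

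Water and ion transport showed the largest share of falls, 20 of 27 with none higher (median -0.66). They cover chloride secretion (Cftr, 2023, 2217, 2281, 2076 and 2281 against 919.7, 1219 and 1497; -0.87 ± 0.13), bicarbonate secretion by goblet cells (Best2, 745, 1056, 768, 672 and 780.4 against 111, 179 and 544; -1.78 ± 0.29), potassium channels (Kcnk5, -1.14 ± 0.16, Kcnq1, -0.64, and Kcnn4, -0.66), sulphate uptake (Slc26a2, -0.81 ± 0.11) and butyrate uptake (Slc5a8, -0.89 ± 0.15). The aldosterone pathway of sodium uptake was lower at several points, the mineralocorticoid receptor Nr3c2 (-0.67), the enzyme Hsd11b2 that shields it from glucocorticoids (-0.68 ± 0.14), the kinase Sgk1 (-0.87 ± 0.24) and the channel subunit Scnn1a (-0.78), while Scnn1b (-0.41) did not pass. The sodium and proton exchanger Slc9a3 did not pass either (-0.22, interval -0.73 to 0.28), nor did Atp1b1, a sodium pump subunit (-0.12).

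**Figure D4:**
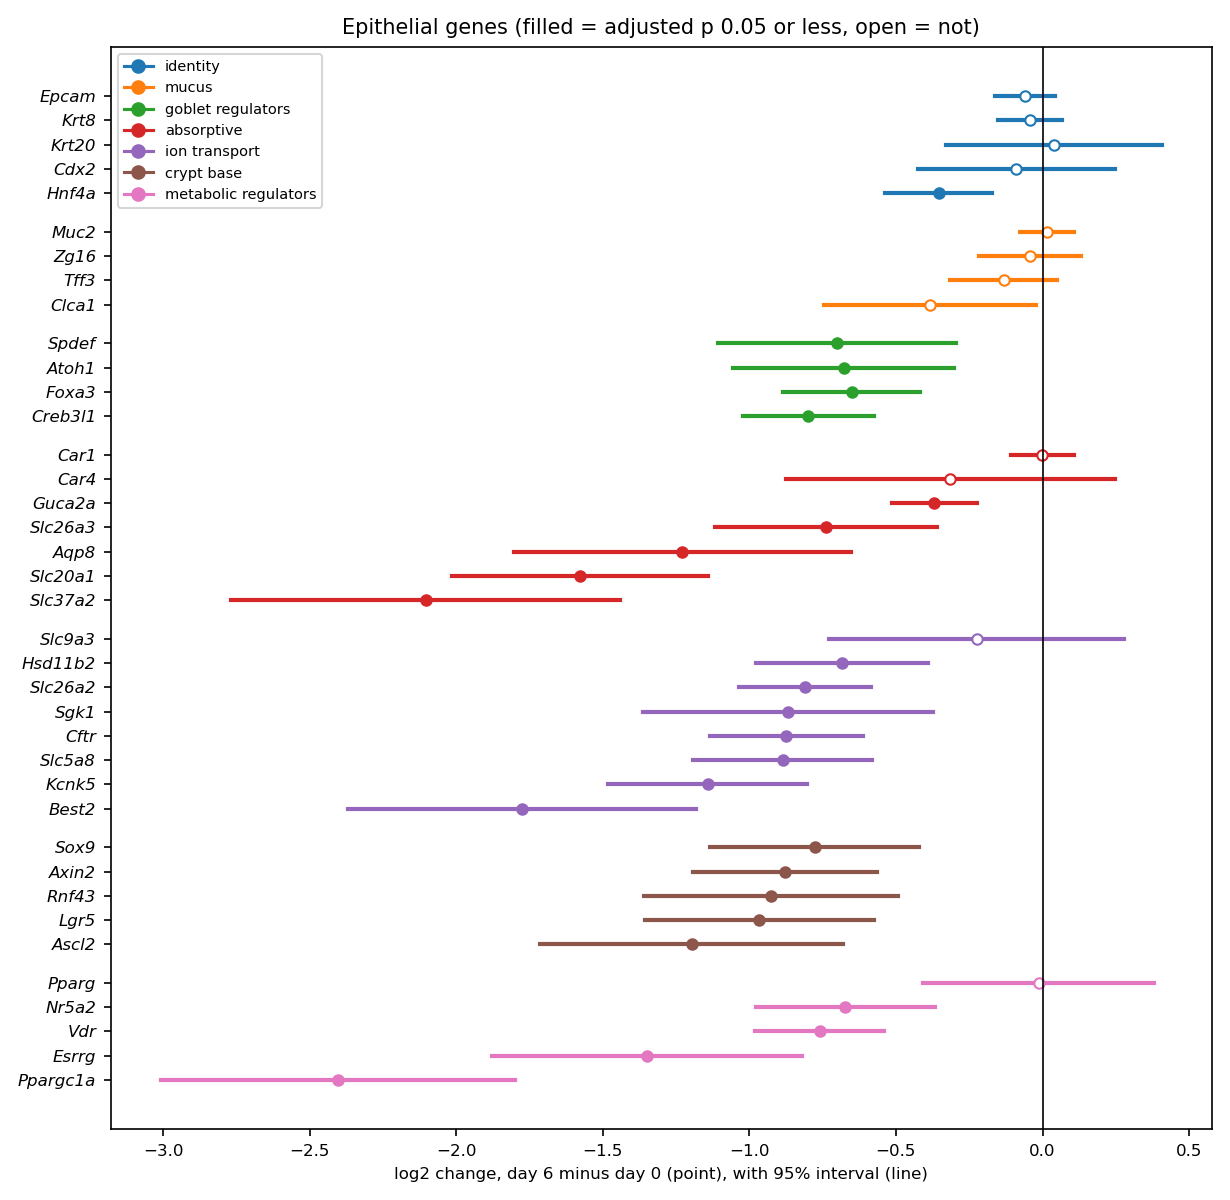
Log2 change from day 0 to day 6 (point) with its 95% interval (line) for epithelial genes grouped by role; filled points are genes with an adjusted p up to 0.05. The identity and mucus genes picked for the plot run from Krt20 at 0.04 to Clca1 at -0.38, and Hnf4a among them passed as lower (-0.35). Of all 18 identity genes 7 fell, the largest fall being -0.64 (Phgr1, not plotted). Ppargc1a lies farthest left at -2.40.

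In goblet cells the transcription factors fell and the main mucus proteins did not pass. Of 25 goblet genes 12 fell and 1 rose, Fut2, at 0.48 (lost in 7 of the 11 fits without 1 array, adjusted p up to 0.102). Spdef, which drives goblet maturation, read 1532, 1684, 2698, 3036 and 2146 at day 0 and 1075, 1253 and 1802 at day 6 (-0.70 ± 0.20, adjusted p = 0.0083), and Atoh1, which commits cells to the secretory fate, read 1516, 2857, 2538, 3324 and 2717 against 1067, 1571 and 2179.9 (-0.68 ± 0.18); both overlapped. Foxa3 (-0.65 ± 0.11) and Creb3l1 (-0.80 ± 0.11) fell without overlap. The mucin Muc2 read 27413, 27969.8, 28286, 26999.9 and 25933 against 26376, 27405 and 29149 (interval -0.08 to 0.11), Zg16 had an interval of -0.22 to 0.13, and Tff3 one of -0.32 to 0.05. These 3 are among the brightest signals of the array, where the largest upward change of any gene was small. Clca1, a secreted mucus protease, lay below day 0 in every animal (19453 to 20878 against 13679.8 to 18114) yet did not pass (-0.38 ± 0.18, adjusted p = 0.0983), and its other probe set gave -1.48. The test pools the spread of all days, and at day 4 Clca1 ran from 7160 to 22898. No enteroendocrine gene of 16 passed, the granule protein Chga being at 0.07. Among 8 tuft cell genes Rgs13 (-0.65), Avil (-0.35) and Dclk1 (-0.27) fell, the last at 0.35, thus higher, with the mean of its probe sets, whose other values ran from -0.55 to 1.49, and lost in 3 of the 11 fits without 1 array (adjusted p up to 0.0627), and Alox5ap, which leukocytes also make, rose (1.76 ± 0.19). Of 26 junction genes 10 fell, led by occludin (Ocln, 2581, 3186, 3424, 3261 and 3188 against 1393, 1938 and 2457; -0.73 ± 0.11), and Cldn1 rose (86.4, 103, 52.7, 82.4 and 101 against 118, 187 and 492; 1.19 ± 0.39, adjusted p = 0.0203), a call lost without mouse 3 of day 0 or mouse 21 or 7 of day 6 (adjusted p up to 0.0595); its other probe sets gave -0.18 to 0.65.

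Most crypt genes measured passed as lower, while no cell cycle gene did. Of 16 stem cell and Wnt target genes 10 fell and 3 rose, the latter near the share over all genes tested (18.1%). Lgr5, which marks crypt stem cells, read 247, 208, 220.3, 319.7 and 259 at day 0 and 77.1, 122 and 160.4 at day 6 (-0.97 ± 0.19, adjusted p = 0.000402). Its median was already 150.4 at day 2 and 153 at day 4, and its other probe set gave 0.31. Ascl2, the stem cell transcription factor, read 293, 339.8, 306, 431 and 451 against 82.2, 163 and 201 (-1.20 ± 0.25). Axin2, a general Wnt readout, read 802, 752, 882, 746 and 669 against 313, 414 and 524 (-0.88 ± 0.15). Rnf43 (-0.93) and Sox9 (-0.78) fell too, while Cd44, a Wnt target that leukocytes and stroma also carry (0.72), Smoc2 (0.40) and Prom1 (0.38) rose, and Myc did not pass (0.04). The call of Smoc2, whose other probe set gave -0.13, was lost in 6 of the 11 fits without 1 array (adjusted p up to 0.133), and that of Prom1 in 1, without mouse 2 of day 0 (0.0661). Of 32 cell cycle genes 5 rose and none fell, against 18.1% higher and 14.3% lower over all genes tested. Averaged over these 32, the day 0 animals were spread widely, from -0.41 to 0.42, and the day 6 animals lay within that range (0.08 to 0.32). Rrm2, a subunit of ribonucleotide reductase, read 437 to 1072 against 842 to 1477 (0.95 ± 0.21). Mki67 read 1283 to 2912 against 2064 to 2393 (0.12, interval -0.28 to 0.51). Of 18 genes of bone morphogenetic protein (BMP) and hedgehog signalling, which pattern the crypt, 7 fell and 3 rose. The 3 are near the share over all genes tested (18.1%). The epithelial hedgehog ligand Ihh read 1753, 1943, 1502, 1169.9 and 1807 against 514, 739 and 1152 (-1.12 ± 0.18), its stromal readout Hhip (-1.69 ± 0.25) fell, and the BMP readouts Id1 (-1.08 ± 0.16), Smad7 (-0.81) and Smad6 (-0.75) fell, while the antagonist Grem1 and the BMP receptors Bmpr2 (0.40) and Bmpr1a (0.18) rose, the last a call lost in 5 of the 11 fits (adjusted p up to 0.116).

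Metabolic genes fell in several lists, mostly by little in respiration and fatty acid oxidation and by more for some regulators and enzymes. Ppargc1a, the coactivator of mitochondrial biogenesis, read 1029, 1207, 1154, 1209.6 and 1394 at day 0 and 77.8, 225 and 517 at day 6 (-2.40 ± 0.29, adjusted p = 1.71e-06), and its other 4 probe sets fell by 1.21 to 1.49. Its median was 850.1 at day 2 and 385 at day 4. Its partner receptor Esrrg fell by 1.35 ± 0.26, the vitamin D receptor Vdr by 0.76 ± 0.11 and Nr5a2, which drives steroid synthesis in the gut, by 0.67, whereas Pparg did not pass (-0.01, interval -0.41 to 0.38). Of 32 respiratory chain genes 18 fell and none rose, all by 0.38 or less (median -0.15), and of 24 fatty acid oxidation genes 11 fell and none rose (median -0.20). Of 35 detoxifying genes 17 fell and 1 rose (median -0.39), among them the glutathione transferase Gstm6 (-1.31 ± 0.19), the sulphotransferase Sult1a1 (-1.02) and the alcohol dehydrogenase Adh1 (13904, 15783, 16654, 15209 and 14656 against 4663, 5885 and 13923; -1.07 ± 0.19). Pck1, the gluconeogenic enzyme, fell from 1836, 2339, 2678, 2286 and 2177 to 486, 678 and 1094 (-1.69 ± 0.16, adjusted p = 9.88e-08). Of 16 cholesterol genes 2 fell, near the share over all genes tested (14.3% lower).

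The most posterior Hox genes, which give the hindgut its position, fell together (a group chosen after its values were seen). Hoxb13 read 4749, 6386, 5954, 6051 and 5142 at day 0 and 286, 1206 and 3703 at day 6 (-2.24 ± 0.40, adjusted p = 0.000142), Hoxd13 read 1520.5, 1916, 1773, 1558 and 1592 against 191, 717 and 1446 (-1.37 ± 0.42), and Hoxa13 read 305, 453, 397, 359.8 and 390.2 against 81.3, 247 and 303 (-0.85 ± 0.23). In all 3 the groups did not overlap, mouse 7 was lowest and mouse 3 highest. The medians of Hoxb13 at days 2 and 4 were 5241 and 5022, near that of day 0. Mouse 7 was also lowest in Mptx1, Wfdc2 and Ppargc1a and in Sycn, a zymogen granule protein that was bright in untreated colon (11200.1 to 16510.5) and read 888, 3751 and 10724 at day 6 (-1.93 ± 0.40). How far along the colon each sample was taken is not stated, and its part in these falls was not tested.

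Markers of tissues beside the colon varied between animals. Squamous keratins, made by stratified epithelium such as that of the anal canal, were present at day 0 and higher at day 6: Krt14 read 708, 875, 368, 644 and 459.5 against 2014, 2810.2 and 5458 (2.33 ± 0.68, adjusted p = 0.0104). Of 21 squamous genes 9 rose, including Krt5 (2.24), Krt6a (2.40) and Krt16 (2.71), while the cornifying keratins Krt1 (1.87 ± 0.92, adjusted p = 0.127) and Krt10 (1.65 ± 0.72, adjusted p = 0.0845) did not pass. The calls of Krt5 and Krt6a were lost in 9 and 7 of the 11 fits that left out 1 array (adjusted p up to 0.101 and 0.0698), and both turned in sign with the hybridization covariate. The summed signal of the 21 genes ran from 15136.9 to 23225 at day 0 and from 35569 to 72003 at day 6. Of 19 skeletal muscle genes none passed, and Acta1 read 3095 to 6504 at day 0 and 1516 to 17402 at day 6, highest in mice 21 and 3 and lowest in mouse 4; the 19 genes summed to 16413 to 34826 and to 5574 to 135918. Pancreatic RNA was seen in 1 animal: the trypsinogen Prss2 read 14.0 to 124 at day 0, 9692 in day 6 mouse 1 and 26.4 to 462 in the other 5. Of 6 mesothelial genes 3 rose, Upk3b (1.23), Gpm6a (1.07) and Upk1b (0.70), and 1 fell; the call of Upk3b was lost in 2 of the 11 fits that left out 1 array (adjusted p up to 0.0739) and its sign turned with the hybridization covariate. The part of these tissues in the other results was not tested.

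The 6 treated animals did not respond to the same degree. Over the 509 genes that rose at least 2-fold, mouse 21 lay farthest from day 0 for 284 genes and mouse 3 nearest for 223, and the median distance from the day 0 mean ranged from 1.07 (mouse 3) to 1.99 (mouse 21) on the log2 scale. Over the 143 genes that fell at least 2-fold, mouse 3 was nearest for 73 and mouse 29 for 44, and mouse 7 farthest for 59. The order was not the same for every group. Averaged over list members, the neutrophil genes stood 1.55 above day 0 in mouse 3 and 2.46 in mouse 29, the interferon genes 1.14 in mouse 3 and 0.69 in mouse 29, and in mouse 4 the interferon genes were highest of the 6 animals (2.11). Crypt stem cell and Wnt genes were closest to day 0 in mouse 7 (-0.23) and between -0.50 and -0.43 in the other 5. That list holds Reg4, its steepest fall (-2.14), in which mouse 7 alone lay above all day 0 animals. How much of the value of mouse 7 rests on Reg4 was not tested. The contrast of mouse 7 with the other 5 is thus not shown for the rest of the list. All 6 animals lay above all 5 untreated ones in many lists, among them the neutrophil, chemokine, cytokine, acute phase and matrix protease lists. They lay below them in water and ion transport, goblet cell, crypt stem cell and Wnt, metabolic regulators, xenobiotic metabolism, and BMP and hedgehog. These values are descriptions, since the genes were chosen on the same animals.

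**Figure D5:**
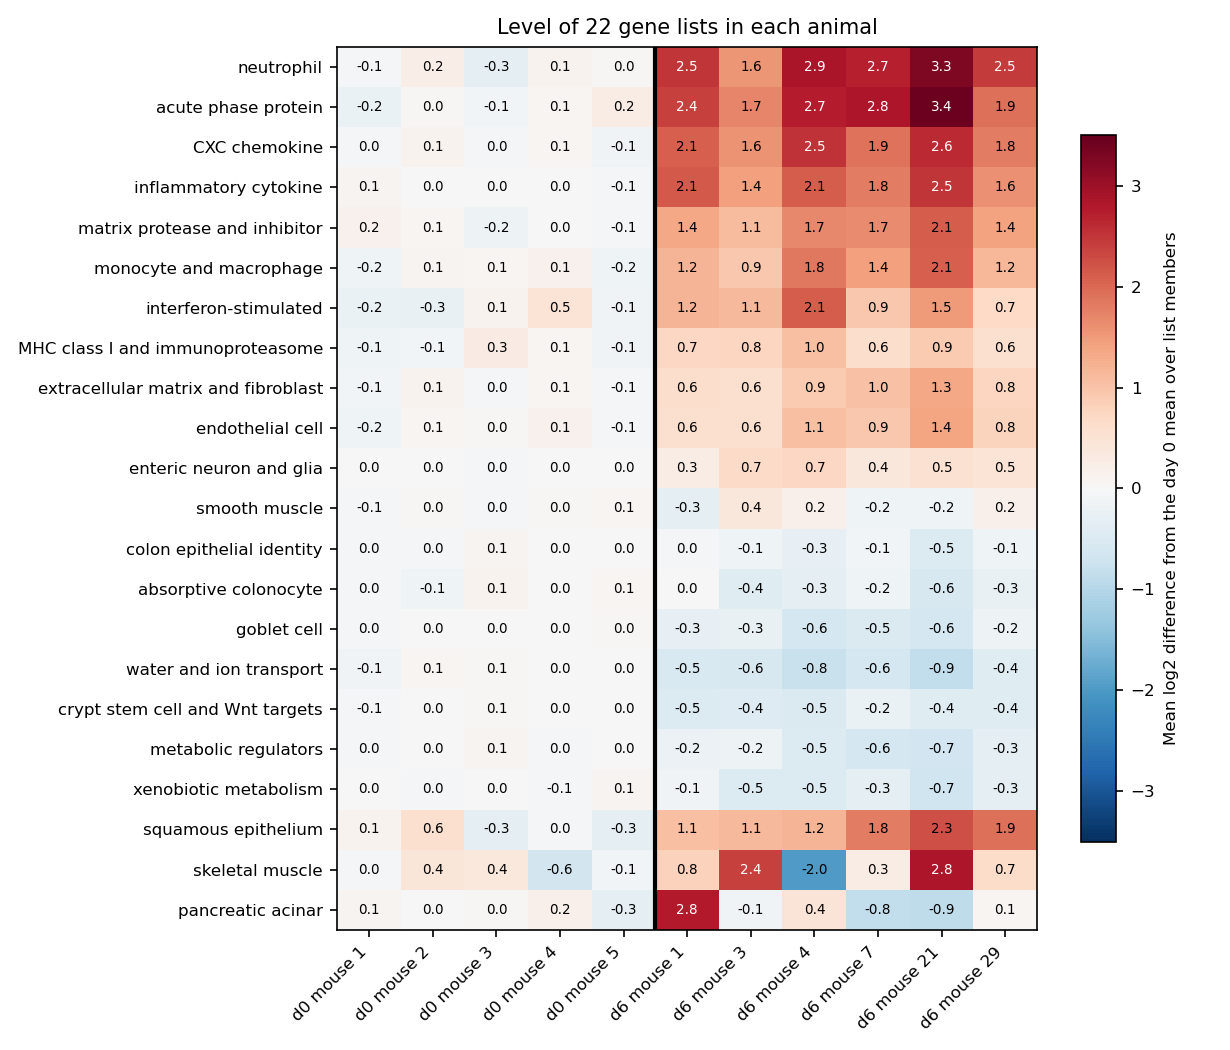
Mean log2 difference from the day 0 mean over the members of 22 gene lists (rows) in each untreated and day 6 animal (columns); red is higher and blue lower. The neutrophil row runs from 1.55 (mouse 3) to 3.27 (mouse 21) at day 6, and the pancreatic row stands out in mouse 1 (2.78).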

How the data were processed

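The values are MAS5 intensities that the authors deposited for 45101 probe sets, per the submitters' processing notes, which name no version; every array has a trimmed mean of 500.003. Probe sets were kept where at least 5 of 23 arrays exceeded their own array's median, which left 24627. Genes were named from the platform annotation where a probe set had 1 symbol (34957 had 1, 920 several, 9160 none, 64 were controls), and the probe set with the highest mean stood for each of 12464 genes, 5547 of which had several. On log2(signal + 16), limma 3.58.1 in R 4.3.3 fitted all 23 arrays with 19 residual degrees of freedom (lmFit, then eBayes with the variance trended on mean signal), contrast day 6 minus day 0, 2-sided, adjusted by Benjamini-Hochberg over all genes. Intervals are 95%.

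On simulated data with the same layout, 47.8% of changes of 0.5, 92.5% of 1 and 100% of 2 on the log2 scale were recovered. Number of arrays limits the precision. Same-numbered animals of days 0 and 6 were not paired by the labels, and their deviations correlated at 0.06 to 0.09 (3 pairs). Gene lists were described by counts, with no set test, and 867 of 1003 list genes on the array passed the low-signal filter. Quality measures were tested with exact permutation in Python 3.11.15 and SciPy 1.17.1. Alternatives were another pseudocount, filter, scaling, probe set rule, variance trend, covariate, block or subset of arrays, and leaving out each array. Named were the 20 largest increases and decreases without overlap, up to 4 members per list, and 56 anchor genes, of which 47 were tested; others were chosen after their values were seen. The genes, lists and comparison were chosen with earlier results of these data known. Some anchor genes are not analysed here. Motifs were searched in RefSeq promoters, matched by symbol for 10025 genes tested.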

Additional observations from a re-analysis of the deposited data

Results flagged for a closer look

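In 13 of 456 gene and group combinations checked, 1 animal stood apart from the rest of its group on the log2(signal + 16) scale by Dixon's criterion, which chance meets for about 1 in 20 groups (5%). At day 6, mouse 3 was low in S100a8 (988, the other 5 at 3362 to 6459.6), S100a9 (729, the others 2811 to 4996) and Hdc (55.3, the others 151 to 217). Mouse 21 was low in Gstm6 (71.1, the others 169 to 239), mouse 7 in Smad6 (219, the others 407 to 564) and mouse 1 in S100b (79.0, the others 118 to 139). At day 0, mouse 2 was high in S100a9 (139, the other 4 at 27.4 to 44.6) and Slpi (1429, the others 996 to 1078) and low in Cxcl9 (16.8, the others 46.5 to 61.0). Mouse 1 of day 0 was high in Il1b (199, the others 125 to 140.1) and low in Ocln (2581, the others 3186 to 3424) and Rasd2 (420.3, the others 642 to 698), and mouse 5 of day 0 was high in Hp (259, the others 66.3 to 84.9).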

How the results depend on the processing

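Of the counts over all genes, those with the hybridization control as a covariate and those with the replicate block moved by over 1.5 times: with the covariate 568 genes were higher, 497 lower and 307 higher at least 2-fold, and with the replicate block (mouse number, which does not pair the animals) 1431 were higher and 1018 lower. The block kept 2274 of the 4044 calls and the covariate 997, with 66 turned in sign; the cause was not tested. Leaving out 1 array gave 1962 to 2366 genes higher, 1491 to 1822 lower, 414 to 570 higher at least 2-fold and 120 to 174 lower at least 2-fold. Of 293 genes followed 250 were called; 22 of the called genes lost their call in at least 1 of the 11 fits without 1 array and 122 in at least 1 of 12 other alternatives, and 4 turned in sign: Krt5 (-0.0902), Krt6a (-0.18) and Upk3b (-0.0249) with the covariate and Dclk1 (0.35) with the mean of probe sets. Precision is limited by the number of arrays, and the pseudocount understates changes of dim probe sets. In 2 of 3 day 6 animals that share a number with a day 0 animal, the array was most like that animal.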
